A study of Mus musculus with 24 samples.

Results

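B cells 24 h after in vitro activation were compared with B cells 4 h after it, in 6 of the 24 libraries of the series. These were the 3 libraries titled as 24 h and the 3 titled as 4 h in vitro activated B cells, chosen by title alone. All 6 came from splenic B cells of BALB/c mice that had been bead purified, stained with antibodies and sorted, and neither time carries a genotype beyond the strain in the labels. The activating agent, the culture medium, the age and sex of the mice, and whether the 3 libraries of a time were separate cultures or animals are not given in the sources used here. P-values therefore measure the spread between libraries within groups, pooled over all 24 libraries of the series, and that spread may be technical. Of the remaining 18 libraries, 9 are of germinal center B cells (early, peak and late), and naive cells, cells activated in vivo and cells 12 h into culture activation have 3 each.

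A resting B cell that is activated leaves quiescence in stages. Immediate-early transcription factors and NF-kB targets respond first, the cell then grows by making ribosomes and taking up nutrients, and only later does release of E2F factors from retinoblastoma proteins switch on the genes of DNA replication and mitosis. In the same period a B cell in the spleen changes its homing receptors, its contacts with T cells and its display of antigen on MHC class II, and it can move on towards class switching or antibody secretion. The comparison of 24 h with 4 h asks how far these programs had moved between the early and the late sampling.

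Each value is a log2 level as deposited, on a scale that resembles CPM (reads scaled to a common library total), and a log2 difference is 24 h minus 4 h with its standard error (SE). Of 23420 genes, 11885 had at least 1 CPM (a log2 level of 0) in at least 3 of the 24 libraries and were tested with limma. A gene is said to have risen, fallen or changed at a Benjamini-Hochberg adjusted p under 0.05 over all genes tested. Library depth is unknown from such values, so a level below 1 CPM rests on few reads and no detection limit can be given. A level below -5 log2 is called the floor, where no fold is given. Levels are relative to the other RNA of the same library, so a change in total RNA per cell cannot be seen, and in a sorted population a smaller share of expressing cells and less RNA per cell cannot be told apart.

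Replicates of a time correlated across genes at 0.9926 to 0.9944 at 4 h and 0.9921 to 0.9936 at 24 h, against 0.8975 to 0.9025 between the times. Genes are not independent replicates, and no library of the 6 stood apart in these values. Differences between replicate numbers had been taken out of the deposited values, so their agreement cannot show how alike the libraries were before that. The B-cell label held at both times. Cd79a, a signalling chain of the B-cell receptor, had log2 levels of 9.64, 9.70 and 9.79 at 4 h and 9.16, 9.22 and 9.23 at 24 h. Ms4a1 (CD20) had 8.88, 8.70 and 8.70 and 9.90, 9.60 and 9.63. Both genes were high in all 6 libraries. Of the 10 B-cell markers, all tested, 5 rose and 5 fell, 2 of them at least 2-fold, and their summed level was 3901 to 4101 CPM at 4 h and 3672 to 3716 at 24 h.

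Of the genes tested, 9034 changed between the times, which is 76.0%, 4372 higher at 24 h (36.8%) and 4662 lower (39.2%). The median log2 difference over all genes was -0.034, and the scaling of the deposited values may have kept it small. At least 2-fold changes numbered 1443 higher (12.1%) and 1781 lower (15.0%), and 607 genes rose and 547 fell at least 4-fold. The 3 libraries of one time lay wholly above those of the other for 9590 genes (80.7%). With so many genes changed, every count of list members is to be read against these shares.

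**Figure D1:**
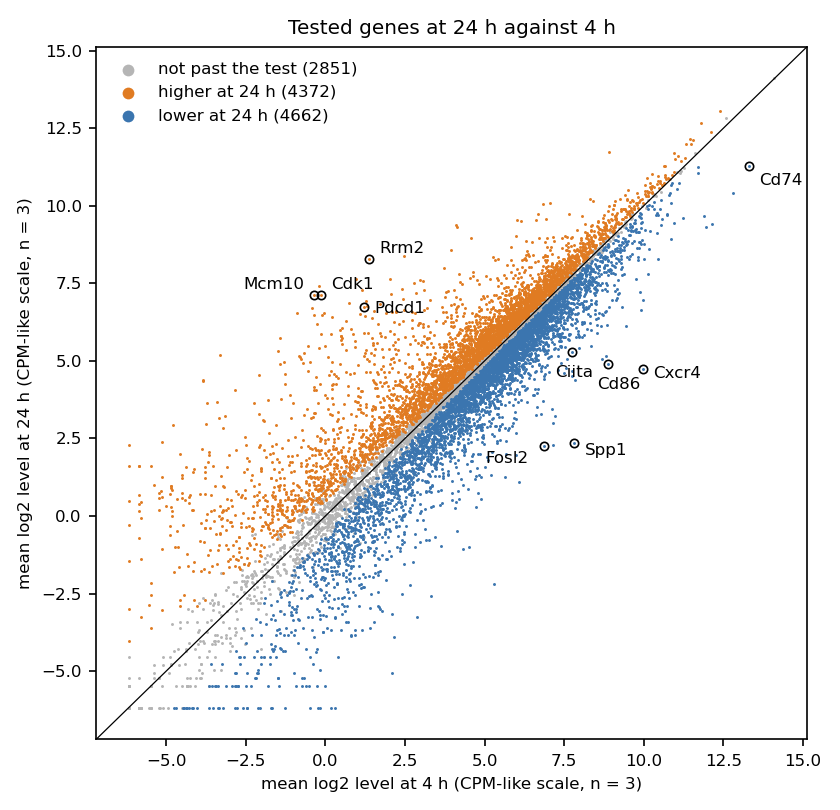
Mean log2 level of each tested gene at 4 h (horizontal) and 24 h (vertical), n = 3 libraries each. Genes higher at 24 h are orange, genes lower are blue and genes that did not pass the test are grey, and the labelled replication and mitosis genes lie far above the diagonal while Cxcr4, Cd86, Fosl2 and Spp1 lie far below it.

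DNA replication genes rose almost as a whole. Of 38 members of the list, 37 rose and 0 fell, with a median log2 difference of 3.13, and 37 rose at least 2-fold. The rises of Mcm10 and Cdc6 were the largest of the list. Cdc6, which loads the MCM helicase onto origins, had log2 levels of 0.30, 0.10 and -0.51 at 4 h and 6.46, 6.53 and 6.60 at 24 h, a log2 difference of 6.56 ± 0.16 (adjusted p = 9.87e-20). Mcm10, which helps to start the helicase, went from -0.39, -0.33 and -0.36 to 7.11, 7.14 and 7.13. Both genes were near 1 CPM at 4 h and far above it in every 24 h library. Cdc45, the helicase subunit that joins MCM when forks fire, rose from 1.27, 1.36 and 1.15 to 6.86, 6.89 and 7.0, and Orc1, a subunit of the origin recognition complex, rose by 4.64 ± 0.10. Cdc6 lies at chr11:98907709-98923942 and Mcm10 at chr2:4990724-5012791 (mm10). Dscc1, of the clamp loader that works in sister chromatid cohesion, rose by 5.95 ± 0.13.

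Of the core MCM helicase subunits, Mcm7 and Mcm2 were already well expressed at 4 h and rose by less than the replication genes named above. Mcm7 rose from 6.01 ± 0.04 (SD, n = 3) to 9.55 ± 0.04 (SD, n = 3) and Mcm2 by 2.25 ± 0.05. Pcna, the sliding clamp, rose from 8.41 ± 0.08 to 10.17 ± 0.01, a 3.4-fold change. Lig1, which seals nicks between Okazaki fragments, rose by 4.41 ± 0.05, and Uhrf1, which keeps DNA methylation through replication, by 5.28 ± 0.05. The 1 member that did not pass the test was Cdt1, another loader of MCM, with 6.42, 6.53 and 6.69 at 4 h and 6.59, 6.63 and 6.61 at 24 h (adjusted p = 0.493). Gmnn, the inhibitor that binds Cdt1, rose from 2.84 ± 0.21 to 7.19 ± 0.12.

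The promoters of 3 of the replication genes with the largest changes and of 2 mitosis genes are shown because these genes moved together. Each is the 140 bases before the RefSeq start (GRCm38.p6, the sequence of mm10), 5′ to 3′ on the gene's own strand, and capitals mark matches to the motifs named after them.
Mcm10: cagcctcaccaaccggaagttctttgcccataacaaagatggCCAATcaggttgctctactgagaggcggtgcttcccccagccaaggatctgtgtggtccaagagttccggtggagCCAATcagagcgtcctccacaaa
Cdc6: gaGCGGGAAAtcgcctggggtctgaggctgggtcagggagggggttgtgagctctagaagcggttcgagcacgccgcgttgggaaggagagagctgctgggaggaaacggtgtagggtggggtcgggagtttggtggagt
Cdc45: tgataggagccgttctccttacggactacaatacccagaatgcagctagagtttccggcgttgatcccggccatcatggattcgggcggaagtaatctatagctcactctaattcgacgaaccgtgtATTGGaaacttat
Cdk1: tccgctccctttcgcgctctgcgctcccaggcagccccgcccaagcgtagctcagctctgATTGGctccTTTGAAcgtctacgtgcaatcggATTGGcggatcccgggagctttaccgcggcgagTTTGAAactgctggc
Bub1: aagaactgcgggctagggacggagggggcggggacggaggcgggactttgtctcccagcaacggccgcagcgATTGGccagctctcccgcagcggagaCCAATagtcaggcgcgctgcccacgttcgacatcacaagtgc
These stretches lie at chr2:5012792-5012931 (minus strand) for Mcm10, chr11:98908011-98908150 (plus) for Cdc6, chr16:18811973-18812112 (minus) for Cdc45, chr10:69352913-69353052 (minus) for Cdk1 and chr2:127831860-127831999 (minus) for Bub1. The Cdc6 stretch precedes a RefSeq transcript that starts within the gene's full span. In Mcm10, Cdc45, Cdk1 and Bub1 the capitals mark CCAAT boxes (CCAAT, or ATTGG on the other strand), the site of the factor NF-Y. In Cdc6 they mark an E2F element (TTTCCCGC or TTTGGCGC, here read as GCGGGAAA on the other strand), which begins at position -138 counted back from the start. In Cdk1 they also mark a pair of TTTGAA motifs, the core of the cell cycle homology region, at positions -71 and -15.

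The search covered both strands of the 250 bases before each start, and no 2 of these 3 motifs can overlap in full. An E2F element was found in 6 of 37 promoters of the replication list (16.2%), in 0 of 31 of the mitosis list and in 2.51% of 11305 promoters of tested genes. A CCAAT box was found in 62.2% and 77.4% of the promoters of the 2 lists, in 71.4% of those of the MHC class II list, which fell, and in 35.5% of all. TTTGAA was found in 13.5%, 32.3% and 10.6%. These shares describe the letters present and test nothing.

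The nucleotide synthesis list rose in 20 of 23 members with a median of 0.61. Rrm2, the regulated subunit of ribonucleotide reductase, had 1.51, 1.30 and 1.31 at 4 h and 8.26, 8.21 and 8.33 at 24 h, a log2 difference of 6.89 ± 0.08. Tyms, which makes thymidylate, rose by 5.10 ± 0.09. In purine and pyrimidine base synthesis, Paics rose by 1.30 ± 0.05 and Gart by 0.52 ± 0.07, and Cad, which starts pyrimidine synthesis, did not pass the test (9.04 ± 0.12 against 8.93 ± 0.08). Impdh1 was the member that fell, by 1.47 ± 0.08, while its paralogue Impdh2 rose by 0.35 ± 0.05.

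All 37 mitosis and spindle genes rose, with a median log2 difference of 4.47, and 34 of them at least 2-fold. Cdk1, the kinase that drives entry into mitosis, had log2 levels of -0.23, 0.08 and -0.31 at 4 h and 6.98, 7.13 and 7.21 at 24 h, a difference of 7.26 ± 0.13 (adjusted p = 2.62e-22). Its partner Ccna2 (cyclin A2) went from 1.0, 1.02 and 0.85 to 7.63, 7.67 and 7.66, and Bub1, a spindle checkpoint kinase, from -0.01, -0.67 and -0.43 to 6.48, 6.50 and 6.48. The libraries of the times were separated by about 6 log2 or more for these 3 genes. Mki67, made by dividing cells, rose by 5.91 ± 0.11 and Top2a, which untangles chromosomes, by 5.20 ± 0.09.

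Within mitosis the changes were uneven. Spc24 and Nuf2, of the NDC80 complex that ties kinetochores to microtubules, rose by 6.44 ± 0.13 and 6.20 ± 0.14. The smallest rises were those of Cdc25b, a phosphatase that activates Cdk1, by 0.17 ± 0.06 (call lost without 4 h replicate 2 or 24 h replicate 2 or 3, adjusted p from 0.0534 to 0.0845), Cenpa, the centromeric histone, by 0.39 ± 0.07 and Pttg1 (securin) by 0.57 ± 0.11. Aurka, a spindle pole kinase, rose by 1.93 ± 0.13 and Cdc20, which activates the anaphase-promoting complex, by 2.56 ± 0.10. Ccnb1 (cyclin B1) stood at 5.35 ± 0.08 and Plk1 at 4.96 ± 0.17 at 24 h. Foxm1, a transcription factor of late cell cycle genes, rose by 2.09 ± 0.08 and Mybl2, its partner in that work, by 4.15 ± 0.08.

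Among genes of the G1 phase and the E2F and retinoblastoma families, 17 of 27 rose and 6 fell (median 1.38). The E2F family split. E2f8, an atypical repressor, rose from -1.35, -1.57 and -1.33 to 5.70, 5.84 and 5.67, E2f7, its relative, by 5.55 ± 0.14, and the activator E2f1 by 3.13 ± 0.08. E2f5, a relative that acts with the retinoblastoma family in resting cells, fell by 1.05 ± 0.15. Cyclin E rose (Ccne1 by 5.46 ± 0.11, Ccne2 by 2.75 ± 0.22), as did the D cyclins Ccnd2 by 1.25 ± 0.15 and Ccnd3 by 2.20 ± 0.07. Cdk6 fell by 1.67 ± 0.13 while Cdk4 rose by 0.58 ± 0.05. Cdkn1a (p21), an inhibitor of cyclin-dependent kinases, fell by 2.61 ± 0.26, while Cdkn2c (p18) rose by 2.72 ± 0.15. Rbl1 (p107), a retinoblastoma relative, rose by 2.63 ± 0.06, and Rb1, Rbl2, E2f4 and Cdkn1b did not pass the test.

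**Figure D2:**
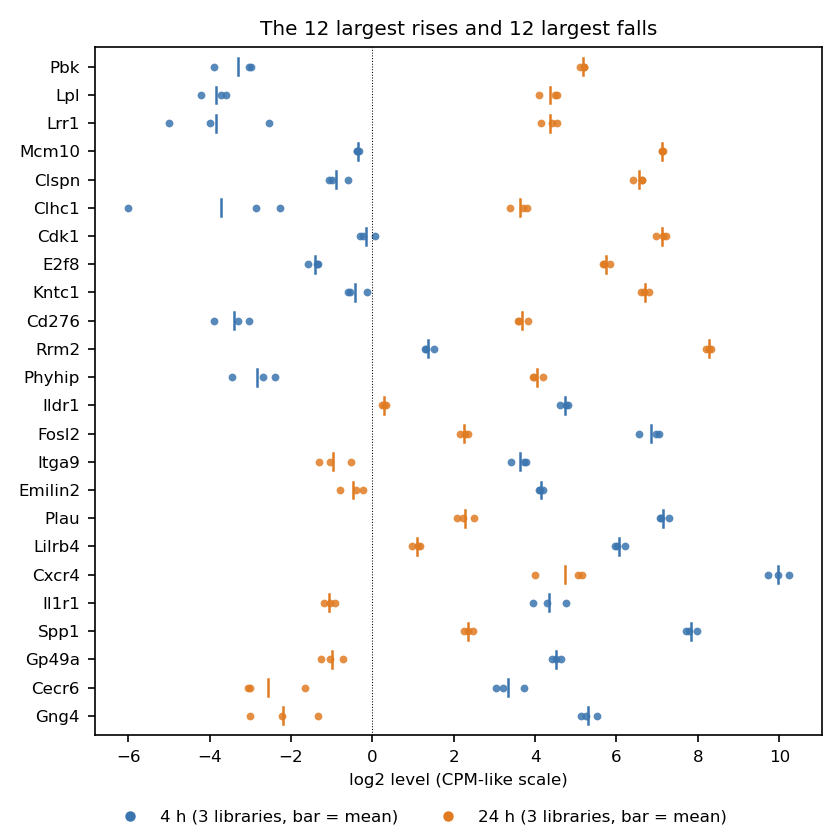
Log2 level in each of the 3 libraries at 4 h (blue) and the 3 at 24 h (orange) for the 12 genes with the largest rise and the 12 with the largest fall. The points of the times do not overlap for any of these genes, which is part of how they were chosen, and 10 of the 12 that rose lay below 1 CPM (0 on the axis) at 4 h in all 3 libraries.

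The 12 largest rises among well-expressed genes were mostly of replication and division: Pbk, a mitotic kinase, Lrr1, Mcm10, Clspn (claspin, a checkpoint adaptor at forks), Cdk1, E2f8, Kntc1 (a kinetochore protein) and Rrm2. The other members were Lpl, Clhc1, Cd276 and Phyhip. Lpl, the lipase that frees fatty acids from lipoproteins, had -4.20, -3.71 and -3.60 at 4 h and 4.54, 4.09 and 4.48 at 24 h. Cd276 (B7-H3), a surface protein of the B7 family, had -3.90, -3.02 and -3.29 and 3.59, 3.61 and 3.83. Both were below 1 CPM in every 4 h library, so the sizes of these differences are poorly fixed. That the libraries of the times did not overlap was a condition for entry to this group. Clhc1 and Lrr1 were each at the floor in 1 of the 4 h libraries.

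The 12 largest falls were in genes of mixed roles. Gng4, a G-protein gamma subunit, fell from 5.51, 5.12 and 5.25 to -1.33, -3.01 and -2.22. Spp1 (osteopontin), a secreted phosphoprotein, fell from 7.78, 7.97 and 7.71 to 2.25, 2.36 and 2.48, a log2 difference of -5.46 ± 0.16. Il1r1, the signalling receptor of interleukin-1, fell by 5.39 ± 0.65 and Plau, the urokinase protease, by 4.88 ± 0.26. Cxcr4, the chemokine receptor for CXCL12, was high in all 3 libraries at 4 h (9.73, 9.96 and 10.24) and fell to 3.99, 5.05 and 5.14, which is 38.0-fold lower (chr1:128588199-128592299). Emilin2, Itga9 (an integrin chain), Ildr1, Cecr6 and the AP-1 gene Fosl2 were the rest, with Gp49a and Lilrb4. Gp49a and Lilrb4 are near-identical copies between which the counting could split reads, so their single values are uncertain. Spp1 and Plau are also made by macrophages. The 13 macrophage and monocyte markers summed to 16.4 to 20.1 CPM per library at 4 h and 23.7 to 26.8 at 24 h, with 3 of 11 tested markers lower and 1 higher, and Csf1r, Cd14 and the 3 C1q genes were below 1 CPM in all 6 libraries. Their part in these falls was not tested.

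**Figure D3:**
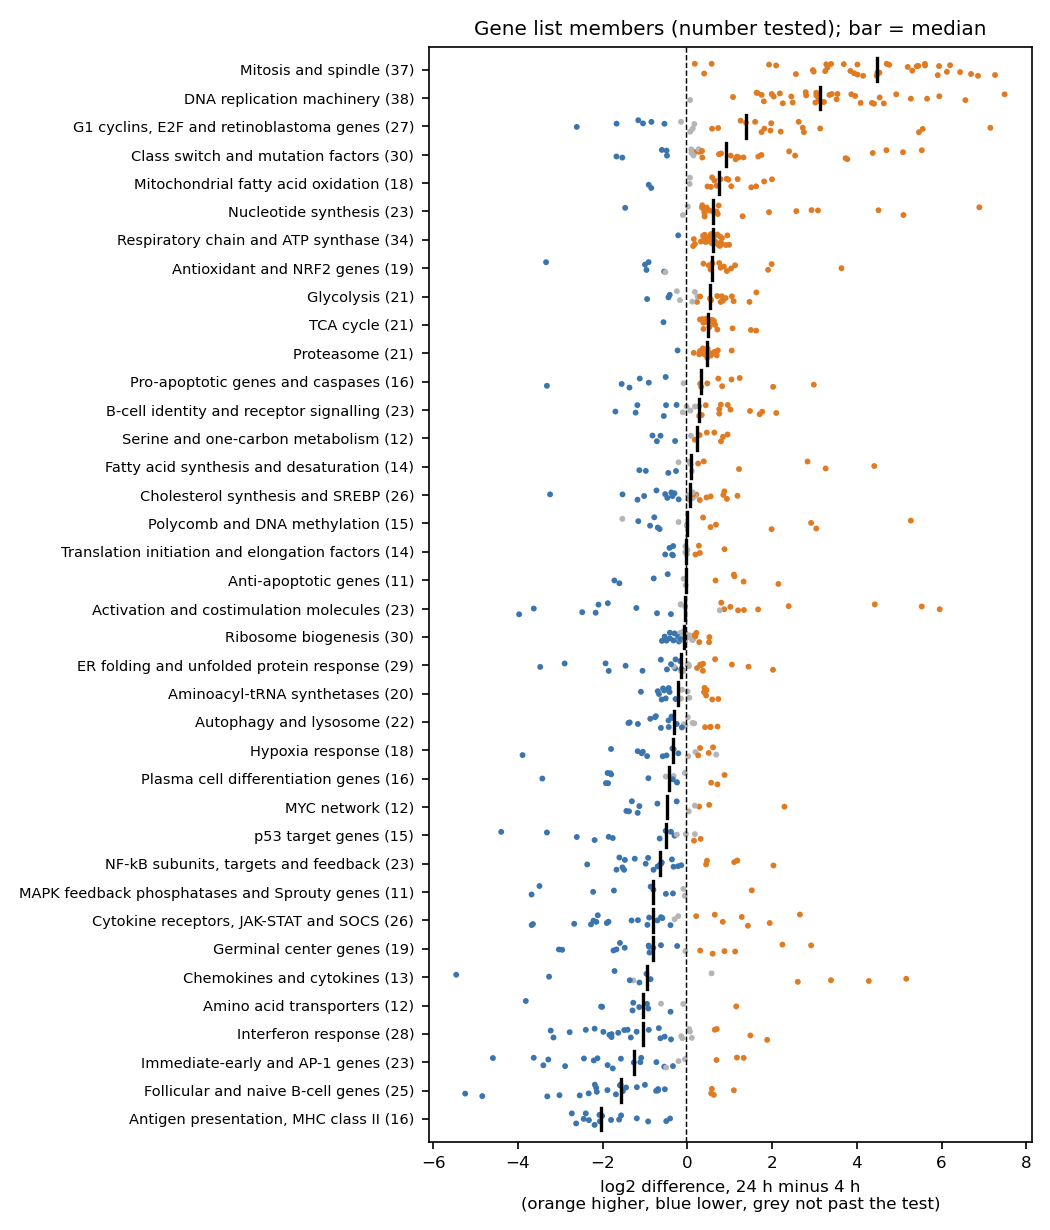
Log2 difference (24 h minus 4 h) of each tested member of the 38 gene lists, one list per row, with the list's median as a black bar and the median of all tested genes as a dashed line. Replication and mitosis members lie to the right, MHC class II members all lie left of 0, and the respiratory chain and proteasome form narrow bands just right of 0.

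Immediate-early and AP-1 genes fell in 17 of 23 cases and rose in 3 (median -1.27). Fosl2 (Fra-2) fell from 7.05, 6.96 and 6.55 to 2.15, 2.35 and 2.28, and Atf3, a stress-induced factor, from 4.93, 4.84 and 4.87 to 0.48, 1.2 and 2.08. The nuclear receptors of the NR4A family, which mark recent antigen-receptor signalling, fell together: Nr4a1 by 1.57 ± 0.15, Nr4a2 by 2.89 ± 0.27 and Nr4a3 by 2.44 ± 0.24. Egr2, which restrains activated lymphocytes, fell by 2.12 ± 0.21, while Fos rose from 3.89 ± 0.47 to 5.21 ± 0.43 and Batf, an AP-1 partner needed for class switching, by 1.17 ± 0.10. Fosb, Jund and Ier3 did not pass the test. The MAPK phosphatases and Sprouty genes, which damp the same signals, fell in 8 of 11 cases (median -0.81): Dusp5 by 3.68 ± 0.13, Spry1 by 3.49 ± 0.18 and Dusp4 by 2.23 ± 0.23. Spred2 rose by 1.52 ± 0.12.

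NF-kB subunits, targets and feedback genes all changed, 18 of 23 lower and 5 higher (median -0.66). Rel, a subunit needed for B-cell division, fell by 0.99 ± 0.15 and Nfkb1 by 0.66 ± 0.05. Negative feedback genes fell as well, Tnfaip3 (A20) by 1.5 ± 0.14 and Nfkbia by 0.93 ± 0.09. Cd83, a surface protein that rises on activation, had 10.85, 10.92 and 11.04 at 4 h and 9.51, 9.41 and 9.44 at 24 h. Ltb (lymphotoxin beta) fell by 2.37 ± 0.13. The members that rose included Ikbke by 2.03 ± 0.10, Tnf by 1.18 ± 0.18 and Icam1, an adhesion molecule for T cells, by 1.10 ± 0.06.

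Of the activation and costimulation molecules 10 of 23 were higher and 9 lower, against 36.8% and 39.2% of all genes. Cd86, the ligand that costimulates T cells through CD28, was at 8.96, 8.85 and 8.77 in the 4 h libraries and 4.94, 4.87 and 4.86 in the 24 h libraries, a 15.7-fold lower level (chr16:36568956-36666158, adjusted p = 1.51e-22). Cd69, an early activation marker that keeps cells in lymphoid tissue, fell from 8.87, 8.72 and 8.81 to 4.76, 5.05 and 5.70. Icosl, Cd274 (PD-L1) and Pdcd1lg2 (PD-L2) fell by 2.17 ± 0.14, 2.10 ± 0.22 and 1.88 ± 0.15. Members that rose included 3 inhibitory receptors. Pdcd1 (PD-1) rose from 1.45, 1.40 and 0.78 to 6.75, 6.82 and 6.65, Lag3 from 0.52, -0.15 and 0.01 to 4.75, 4.36 and 4.54, and Ctla4 by 2.39 ± 0.22 from below 1 CPM. Cd70, the ligand of CD27, was below 1 CPM at 4 h (-4.58, -4.81 and -3.73) and had 1.14, 1.65 and 1.96 at 24 h. Tnfrsf13b (TACI), a receptor for BAFF and APRIL, rose by 1.67 ± 0.08, while the BAFF receptor Tnfrsf13c fell by 0.72 ± 0.05. Cd80, Cd44, Slamf7 and Tigit did not pass the test.

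Of the chemokine and cytokine genes 4 of 13 rose and 7 fell, against 36.8% and 39.2% of all genes, and 6 of the list were too low to test. Ccl22, which attracts T cells through CCR4, rose from 3.93, 3.62 and 3.62 to 8.04, 7.91 and 8.07, a 19.5-fold difference. Ebi3, a subunit of interleukins 27 and 35, rose by 3.39 ± 0.13, and the TNF family ligands Tnfsf9 (4-1BB ligand) and Tnfsf4 (OX40 ligand) by 5.17 ± 0.34 and 2.61 ± 0.45. Ccl4 fell by 0.87 ± 0.25 and Ccl5 by 3.27 ± 0.45, both attractants of T cells, and Tgfb1 by 0.97 ± 0.06.

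Cytokine receptor and JAK-STAT genes fell in 17 of 26 cases and rose in 7 (median -0.81), and under a filter of 10 CPM in 3 libraries 4 of the 22 left rose. Il9r fell from 6.98, 7.15 and 7.26 to 3.25, 3.55 and 3.56, Il7r by 3.65 ± 0.26 and the interleukin-4 receptor chain Il4ra by 1.32 ± 0.08. Stat3 fell by 1.86 ± 0.04 and Stat6, which carries the interleukin-4 signal, by 0.90 ± 0.06, and the feedback inhibitors Socs1 and Socs3 by 2.28 ± 0.15 and 2.67 ± 0.23. Pim1 fell by 2.15 ± 0.10 while its paralogue Pim2, also a survival kinase, rose from 4.84, 4.88 and 4.71 to 7.41, 7.47 and 7.51. Il5ra rose by 1.43 ± 0.26, and Il2ra (CD25) had 7.83 ± 0.07 and 7.53 ± 0.12. That difference did not pass in the fit of all 24 libraries (adjusted p = 0.274) and did in a fit of the 6 libraries alone (adjusted p = 0.000913).

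Follicular and naive B-cell genes fell in 21 of 25 cases and rose in 4 (median -1.58). Several receptors that guide B cells within lymphoid tissue were among them. Ccr7, which leads cells to the T zone, had 9.90, 9.99 and 10.04 at 4 h and 6.92, 6.98 and 6.97 at 24 h. Gpr183 (EBI2) fell by 2.19 ± 0.14, Cxcr5, the follicle homing receptor, by 1.69 ± 0.23, and S1pr1, which allows exit from tissue, by 2.33 ± 0.39. Klf2, a quiescence factor that sustains S1pr1, fell from 8.13, 7.84 and 7.88 to 5.22, 5.42 and 5.58. Satb1, a chromatin organiser, fell by 3.31 ± 0.12. Cr2 (CD21) fell by 2.15 ± 0.13 and Fcer2a (CD23) by 1.0 ± 0.12. Bcl2 was among the members that rose, by 1.10 ± 0.11, with Cd22 by 0.62 ± 0.08 and Cd38 by 0.56 ± 0.11. The call of Gpr174 (0.58 ± 0.21) was lost when any 1 of 3 libraries was left out (4 h replicate 2 or 3, or 24 h replicate 1), with adjusted p from 0.0524 to 0.0851. Markers of marginal zone B cells fell too, 6 of 9 tested, with a summed level of 867 to 899 CPM at 4 h and 375 to 406 at 24 h, and a shift in the mix of B-cell subsets was not tested.

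All 16 genes of MHC class II presentation fell, the reverse of replication, with a median log2 difference of -2.04, and 13 fell at least 2-fold. H2-Aa and H2-Eb1, an alpha and a beta chain, had 12.92, 12.57 and 12.89 and 12.08, 12.19 and 12.20 at 4 h and 10.29, 10.50 and 10.40 and 9.29, 9.49 and 9.49 at 24 h. Cd74, the invariant chain that guards the peptide groove, fell from 13.31, 13.31 and 13.27 to 11.20, 11.36 and 11.27. Ciita, the coactivator that switches on the class II chain genes, fell from 7.57, 7.69 and 7.92 to 5.26, 5.36 and 5.22, a log2 difference of -2.45 ± 0.09 (adjusted p = 1.91e-16). H2-DMa, a peptide-exchange chain, fell by 1.8 ± 0.08 and H2-Ob by 2.19 ± 0.08. Ctss, the protease that trims Cd74, fell by 0.41 ± 0.04, the smallest change of the list. H2-DMb1 and H2-DMb2 are near-identical copies whose reads could be split, so their single values are uncertain.

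The promoters of H2-Aa and H2-Eb1 are shown as members of the set that fell together. They were picked after their values were seen, because CIITA acts through a shared promoter module of which the Y box is a part. Capitals mark the Y box (CTGATTGG), and the reference strain is C57BL/6, whose MHC alleles differ from those of BALB/c.
H2-Aa: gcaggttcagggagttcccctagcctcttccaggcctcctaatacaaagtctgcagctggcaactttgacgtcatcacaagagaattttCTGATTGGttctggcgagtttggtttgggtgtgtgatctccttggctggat
H2-Eb1: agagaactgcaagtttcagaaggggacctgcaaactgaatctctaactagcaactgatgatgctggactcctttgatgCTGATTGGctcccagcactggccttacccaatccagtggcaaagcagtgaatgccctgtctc
They lie at chr17:34287824-34287963 (minus strand) and chr17:34305727-34305866 (plus strand). The match begins at position -51 in H2-Aa and -62 in H2-Eb1. CTGATTGG, which holds the CCAAT box read as ATTGG, was searched on both strands. It was found in 4 of 14 promoters of the list (28.6%) and in 5.39% of all. Of the promoters of the replication and mitosis lists, which rose, 21.6% and 25.8% held it. The Mcm10 and Cdk1 stretches shown above also hold these letters on 1 strand or the other, where they are not marked as a Y box. Dendritic cells also carry MHC class II. Of their 8 markers, 4 of 5 tested fell and 1 rose, and the sum was 56.4 to 59.3 CPM at 4 h and 13.4 to 15.2 at 24 h. Zbtb46 (5.18 ± 0.05 at 4 h and 2.90 ± 0.13 at 24 h) and Flt3 (3.91 ± 0.14 and 2.42 ± 0.13) held most of that sum, while Xcr1, Clec9a, Clec10a and Batf3 were below 1 CPM in all 6 libraries. Their part in the fall of MHC class II was not tested.

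**Figure D4:**
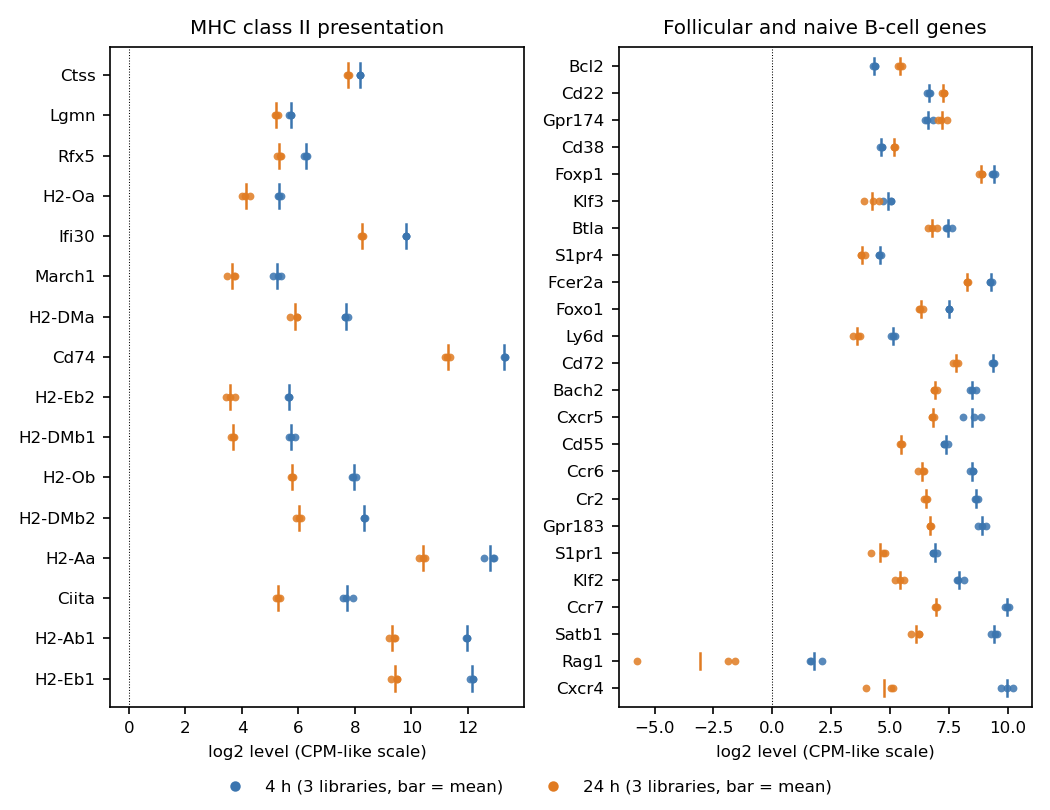
Log2 level in each library at 4 h (blue) and 24 h (orange) for the MHC class II genes (left) and the follicular and naive B-cell genes but 1 (right). Every MHC class II gene is lower in all 3 libraries at 24 h, and of the follicular genes Bcl2, Cd22, Cd38 and Gpr174 are the 4 that are higher.

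B-cell identity and receptor signalling genes mostly rose, 13 of 23, and 6 fell. Ikzf1 (Ikaros) rose from 7.51, 7.65 and 7.76 to 9.84, 9.77 and 9.60, and the receptor adaptor Blnk by 1.71 ± 0.05. Ebf1, which sets B-lineage identity, fell by 1.70 ± 0.09, Irf8 by 1.22 ± 0.06 and the coactivator Pou2af1 by 1.18 ± 0.05. Pax5 had 5.84 ± 0.13 and 6.18 ± 0.19, a rise of 0.34.

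Plasma cell genes fell in 9 of 16 cases and rose in 3 (median -0.43). Prdm1 (Blimp-1), the repressor that starts antibody secretion, had 2.64, 2.77 and 3.07 at 4 h and -0.86, -0.23 and -0.70 at 24 h, below 1 CPM. Irf4, which acts in both the germinal center and plasma cell programs by dose, fell from 10.83, 10.88 and 10.89 to 9.04, 9.01 and 8.78. Igj, the J chain gene, fell by 1.87 ± 0.12, while Txndc5 and Mzb1, of the secretory pathway, rose by 0.88 ± 0.06 and 0.71 ± 0.05. Germinal center genes fell in 12 of 19 tested cases. Bcl6, the repressor that makes the germinal center state, fell from 5.46, 5.58 and 6.13 to 2.62, 3.0 and 2.68, and Basp1 by 3.04 ± 0.11. Mef2b rose by 2.24 ± 0.12 and Ezh2, the Polycomb methyltransferase, by 2.92 ± 0.06, which was the largest rise of that list.

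The class switch and repair list rose in 21 of 30 cases and fell in 5. Rises in homologous recombination and Fanconi repair included those of Fancd2 by 5.53 ± 0.12 and Brca1 by 3.73 ± 0.06. Msh6, of mismatch repair, rose by 1.67 ± 0.06 and Ung, which removes uracil from DNA, by 1.32 ± 0.08. In end joining, Xrcc4 and Lig4 did not pass the test and Xrcc6 (Ku70) rose by 1.21 ± 0.06.

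The MYC network held 7 of 12 tested genes that fell. Myc itself had 9.37, 9.30 and 9.31 at 4 h and 8.0, 7.96 and 8.08 at 24 h, a log2 difference of -1.31 ± 0.10, and its antagonists Mnt and Mxi1 fell by 1.44 ± 0.16 and 1.18 ± 0.13. Mxd3 rose by 2.29 ± 0.20. Ribosome biogenesis genes stayed within -0.60 to 0.52 log2: 7 of 30 rose, 10 fell and 13 did not pass the test (median -0.08). Only 4 rose without 4 h replicate 1 and only 3 without 24 h replicate 3. Rrp12 and Utp20, of small-subunit assembly, fell by 0.60 ± 0.08 and 0.54 ± 0.11, while Npm1 (nucleophosmin) rose by 0.51 ± 0.06 and Gar1 by 0.52 ± 0.07. Translation factors likewise had 4 of 14 higher and 5 lower, against 36.8% and 39.2% of all genes. Eef2, the elongation factor that moves the ribosome, rose by 0.88 ± 0.11 and Eif4ebp1, a brake on initiation, fell by 0.53 ± 0.12.

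Amino acid transporter genes fell in 9 of 12 tested cases and rose in 1 (median -1.05). Slc7a1, for cationic amino acids, fell from 9.09, 9.23 and 9.23 to 7.13, 7.26 and 7.04, and Slc7a5 (LAT1), for large neutral ones, by 1.30 ± 0.10. Slc6a9, a glycine transporter, fell by 3.82 ± 0.38 and Slc1a4 by 2.01 ± 0.25. Slc43a1 was the member that rose, by 1.15 ± 0.19. Of the aminoacyl-tRNA synthetases 10 of 20 fell, led by Sars by 1.10 ± 0.05 and Lars by 0.70 ± 0.06, and 6 rose, led by Qars by 0.73 ± 0.04 and Farsb by 0.59 ± 0.06. The unfolded protein list had 13 of 29 lower and 9 higher. For this list and the synthetases the shares of all genes were 39.2% lower and 36.8% higher. Genes of the ATF4 stress response were among the falls of the unfolded protein list: Trib3 by 3.48 ± 0.26, Chac1 by 2.90 ± 0.43, Ddit3 (CHOP) by 1.93 ± 0.20 and Asns by 1.06 ± 0.14. Derl3, Sdf2l1 and Pdia4, which serve folding and clearance in the endoplasmic reticulum, rose by 2.02 ± 0.12, 1.44 ± 0.07 and 1.05 ± 0.07.

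Of 26 cholesterol synthesis and SREBP genes 9 rose, 11 fell and 6 did not pass the test, close to the 36.8% and 39.2% of all genes. Among the transport and feedback genes that fell were Abca1, the sterol exporter, from 7.54, 7.67 and 8.05 to 4.50, 4.68 and 4.36, and Insig1 by 1.18 ± 0.13. Sqle, a control point of the pathway, fell by 0.47 ± 0.07, while Acat2, which starts the pathway, rose by 1.18 ± 0.09 and Ebp by 0.93 ± 0.08. The list's median was lower at 12 h than at either other time. Hmgcs1 had 8.33 ± 0.08 at 4 h, 6.82 ± 0.02 at 12 h and 7.98 ± 0.06 at 24 h, and Sqle had 7.93 ± 0.06, 6.58 ± 0.07 and 7.45 ± 0.07. The median of the list was -1.10 from 4 h to 12 h and 1.01 from 12 h to 24 h.

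In fatty acid synthesis 6 of 14 genes rose and 4 fell, against 36.8% and 39.2% of all genes. Of the desaturases, Fads2 rose from -0.46, 0.24 and -0.25 to 4.23, 4.25 and 4.28, Fads1 by 3.26 ± 0.08 and Scd2 by 2.84 ± 0.14, whereas Scd1, also a desaturase, and the synthase Fasn fell by 0.98 ± 0.06 and 1.14 ± 0.10. In mitochondrial fatty acid oxidation, 14 of the 18 tested enzymes and carriers rose (median 0.74), led by the dehydrogenases Acadl by 2.0 ± 0.05 and Hadh by 1.81 ± 0.07. Both genes that fell sit at the entry of fatty acids into mitochondria: Cpt1a, the rate-limiting carnitine transferase, by 0.91 ± 0.07 (from 5.34, 5.33 and 5.35 to 4.46, 4.39 and 4.43) and the carrier Slc25a20 by 0.85 ± 0.08.

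Respiratory chain genes rose by small amounts. Of the respiratory chain and ATP synthase genes 33 of 34 rose and 1 fell, within -0.22 to 0.98 log2 and with a median of 0.60, and none reached 2-fold. Cox6c, of complex IV, rose by 0.98 ± 0.05 and Ndufv1, of complex I, by 0.91 ± 0.06, and Uqcrq, of complex III, fell by 0.22 ± 0.06. TCA cycle genes rose in 20 of 21 cases (median 0.50), Idh2 by 1.62 ± 0.08 and Fh1 (fumarase) by 1.5 ± 0.06, and Suclg2 fell by 0.57 ± 0.04. Proteasome genes rose in 20 of 21 cases (median 0.46), from -0.23 for the activator Psme3, which fell, to 1.04 for the core subunit Psma1. Glycolysis genes rose in 13 of 21 cases, Gapdh by 1.09 ± 0.04 and Tpi1 by 1.05 ± 0.07. In contrast, Slc2a1 (GLUT1) fell by 0.95 ± 0.15, Slc2a3 (GLUT3) by 0.42 ± 0.06 and Ldha by 0.45 ± 0.06. Of 12 genes of serine and one-carbon metabolism 7 rose, Ahcy by 0.95 ± 0.07 and Shmt1 by 0.79 ± 0.09, and 4 fell, among them the mitochondrial Shmt2 by 0.64 ± 0.08.

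Antioxidant genes rose in 13 of 19 cases. Mt1, a metallothionein that binds zinc and other metals, rose by 3.64 ± 0.28. Gpx1, a glutathione peroxidase, rose from 6.35, 6.44 and 6.39 to 8.22, 8.41 and 8.52 and Txn1 (thioredoxin) by 1.90 ± 0.05, while the NRF2 targets Srxn1 and Gclc fell by 3.34 ± 0.66 and 0.97 ± 0.06. Hypoxia response genes fell in 11 of 18 cases, Vegfa from 5.36, 5.4 and 4.85 to 1.2, 1.37 and 1.37 and Ddit4, an inhibitor of mTORC1, by 1.8 ± 0.15. Autophagy and lysosome genes fell in 13 of 22 cases, with Sqstm1 (p62) down by 1.39 ± 0.10 and Ctsb up by 0.71 ± 0.12.

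Interferon response genes fell in 19 of 28 cases and rose in 4 (median -1.06), and under a filter of 10 CPM in 3 libraries 9 of the 17 members left fell (median -0.39). Irf7, which amplifies the response, had 4.20, 4.06 and 4.24 at 4 h and 1.23, 1.79 and 1.15 at 24 h, and Oasl1 fell by 3.23 ± 0.14. The sensor Ifih1 (MDA5) rose by 1.88 ± 0.18 and the kinase Eif2ak2 (PKR) by 1.49 ± 0.15. Mx1, Oas2 and Rsad2 were below 1 CPM at 24 h.

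Of 11 anti-apoptotic genes 5 rose and 4 fell, against 36.8% and 39.2% of all genes. Bcl2l1 (BCL-XL) rose from 6.74, 6.77 and 6.55 to 7.78, 7.81 and 7.81, and the copies Bcl2a1a, Bcl2a1b and Bcl2a1d (A1) rose by 2.15, 0.66 and 1.33, with single values uncertain because their sequences are near-identical. Mcl1 fell by 0.47 ± 0.07 and Cflar, an inhibitor of caspase-8, by 1.73 ± 0.08. Among death genes 9 of 16 tested rose and 6 fell (median 0.31), against 36.8% and 39.2% of all genes. At least 2-fold changes were 4 higher and 4 lower, and the differences ran from -3.32 to 2.98. The BH3-only gene Bbc3 (PUMA) fell from 4.30, 4.25 and 4.40 to 0.99, 1.31 and 0.68, and Bmf and Bcl2l11 (BIM) by 1.37 ± 0.12 and 0.91 ± 0.21, whereas Bid rose by 1.23 ± 0.10. Of p53 targets 10 of 15 fell, Plk2 from 5.70, 5.53 and 5.70 to 0.91, 1.27 and 1.56. In the Polycomb and DNA methylation list Dnmt1 rose by 3.04 ± 0.07, Ezh1 fell by 0.88 ± 0.08 and Tet3 fell by 1.16 ± 0.11.

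The split of these changes at 12 h was tested as the second step (24 h minus 12 h) minus the first (12 h minus 4 h), in the same fit. A positive value means that a gene rose more, or fell less, in the second step, and the steps last 8 h and 12 h. Because the second step is longer, a steady rise alone gives a positive value and a steady fall a negative one. Of all genes tested, 61.9% changed in the first step and 57.3% in the second. The steps differed for 5336 genes (44.9%), 2081 positive (17.5%) and 3255 negative (27.4%). Of the mitosis list, 36 of 37 were positive and 0 negative, and of the replication list 33 of 38 and 0. The median of the mitosis list was 0.64 in the first step and 3.71 in the second, and that of the replication list 1.13 and 2.05. Mki67 had 2.48 ± 0.04, 2.78 ± 0.11 and 8.39 ± 0.07 at 4 h, 12 h and 24 h, and Birc5 (survivin) 1.66 ± 0.12, 0.88 ± 0.20 and 6.19 ± 0.14. Nusap1, Iqgap3, Kif15 and Ccnb2, which also act in division, were among the 8 largest positive values.

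Of the respiratory chain and ATP synthase list 31 of 34 were negative, with medians of 0.62 in the first step and 0.00 in the second, and of the proteasome list 20 of 21. Ribosome biogenesis had 22 of 30 negative, with medians of 0.17 and -0.28. That count lay between 16 (with TMM factors, another scaling of the libraries) and 26 over the alternatives. Pim2 reached 7.31 ± 0.02 by 12 h and had 7.46 ± 0.06 at 24 h, and Lag3 3.44 ± 0.19 and 4.55 ± 0.19. Kdm5b, a histone demethylase, kept its level to 12 h (5.56 ± 0.21 and 5.46 ± 0.06) and fell to 3.19 ± 0.03.

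Among genes that fell, Spp1 had 7.82 ± 0.14, 1.99 ± 0.07 and 2.36 ± 0.11, and Cd86 8.86 ± 0.10, 5.37 ± 0.09 and 4.89 ± 0.05, so both had fallen by 12 h. The medians of the MHC class II list were -1.05 in the first step and -1.05 in the second, and 4 members had a positive and 5 a negative value. Cxcr4 had 9.97 ± 0.26, 7.75 ± 0.28 and 4.73 ± 0.64 at 4 h, 12 h and 24 h. Of the cholesterol and SREBP genes, 22 of 26 had a positive value and 0 a negative one. The 3 comparisons share libraries, so the 2 steps of a gene are not independent.

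Levels in the 3 naive libraries give a second reference for the genes on which these results turn. Cdk1 had 1.51 ± 0.17 and Cdc6 1.52 ± 0.20 in naive cells, which is above their 4 h levels (-0.15 ± 0.20 and -0.03 ± 0.42) and far below their 24 h levels (7.11 ± 0.12 and 6.53 ± 0.07). Mki67 lay between the times in the same way, at 5.08 ± 0.15. Myc and Cd69, which activation is known to induce, had 9.25 ± 0.13 and 9.21 ± 0.23 in naive cells, near their 4 h levels (9.33 ± 0.04 and 8.80 ± 0.07) and above their 24 h levels (8.02 ± 0.06 and 5.17 ± 0.48). Cd86 had 6.19 ± 0.04 in naive cells, below 4 h and above 24 h. Cxcr4 had 10.86 ± 0.29, Ccr7 10.33 ± 0.32 and Ciita 8.55 ± 0.07 in naive cells, so their means descended from naive to 4 h to 24 h. Differences from naive cells were not tested here.

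**Figure D5:**
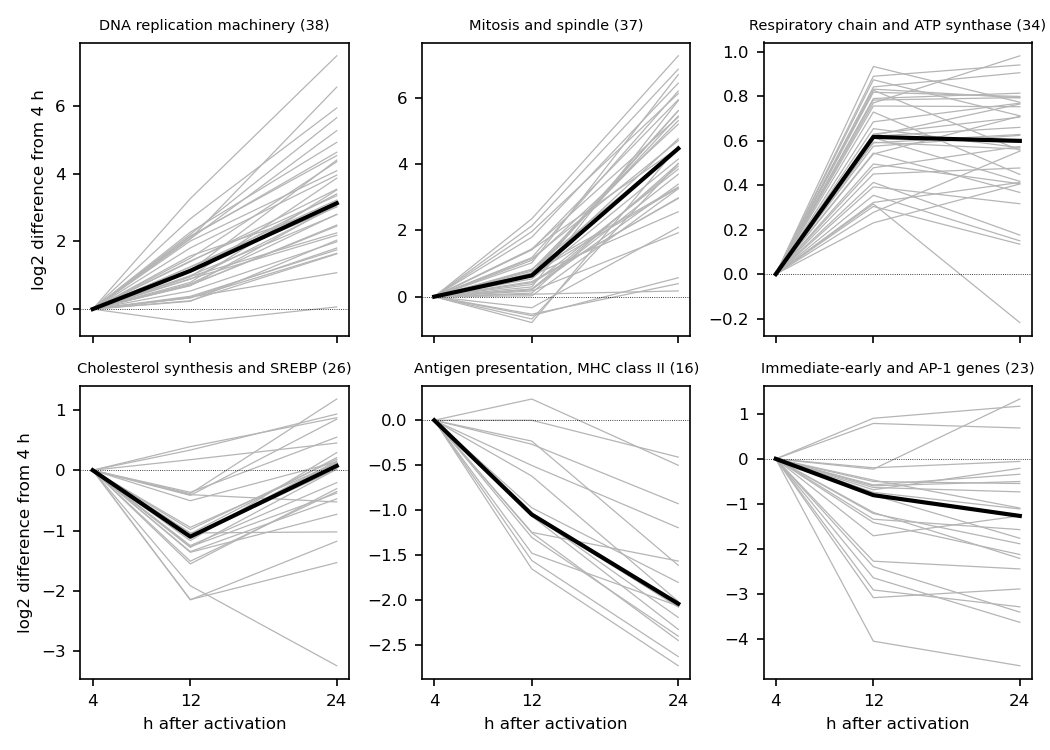
Mean log2 level relative to 4 h at 4 h, 12 h and 24 h for the members of 6 gene lists, one thin line per gene and the list's median as a thick line (n = 3 libraries per time). Vertical axes differ between the panels. The mitosis median stands 0.64 above 4 h at 12 h and 4.47 above it at 24 h, the respiratory chain median 0.62 and 0.60, and the cholesterol median at -1.10 and 0.07.

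Markers of other cell types were low at both times. Among T-cell markers Cd3d, Cd3e, Cd4, Cd8a, Cd8b1 and Thy1 were below 1 CPM in all 6 libraries, while Lck, which B cells can also express, held most of a sum of 174 to 181 CPM at 4 h and 187 to 209 at 24 h. NK markers fell in 5 of 6 tested cases, from a sum of 13.6 to 20.4 CPM to 2.6 to 4.6, with Eomes going from 1.51 ± 0.28 to -3.43 ± 0.53. Erythroid markers fell in 4 of 5 tested cases (5.2 to 9.4 to 1.3 to 1.7 CPM) and neutrophil markers in 1 of 7 (9.6 to 16.7 to 8.2 to 12.9). Platelet markers summed to 1.0 to 1.3 and 0.8 to 1.0 CPM. Stromal markers summed to 48.9 to 54.7 and 30.7 to 36.5, nearly all of it Pecam1, and plasma cell markers to 91.0 to 106 and 63.3 to 67.6. The part of such cells in the changes above was not tested.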

How the data were processed

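RNA was sequenced from sorted splenic B cells of BALB/c mice. Per the labels' protocols, the RNeasy Plus Micro Kit served for RNA isolation and the TruSeq Stranded mRNA kit for the libraries. The reads were handled with STAR 2.6.0c, featureCounts of Subread 1.6.2, limma, cutadapt 1.8.3 and FastQC 0.11.5 on mm10, per the submitters' processing notes. The counting options and limma steps are not given in the sources used here. The deposited values are log2 levels that resemble CPM: taken off the log scale, they sum to 990678 to 1008194 per library. The level at rank 1000 differed by at most 0.03 log2 between the 24 libraries, so their distributions were nearly alike there. Centring or scaling such values again can move the 24 h against 4 h counts only a little. For each gene, the averages of replicate numbers 1, 2 and 3 over the 8 groups differ by at most 0.0009 log2, so any difference between replicate numbers had been taken out, and the fit without a block does not allow for that. Depth is unknown.

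Limma 3.58.1 in R 4.3.3 was fitted to all 24 libraries with a mean for each group. Its variance was moderated robustly along a trend, on 16 residual degrees of freedom. Genes at 1 CPM or more in at least 3 libraries were tested, p-values are two-sided and adjusted over the 11885 genes tested, and the step comparison came from the same fit. The script was tested on simulated data with far fewer changed genes than here and with independent noise, so that test checks the code and not the error rate in these data. Figures came from matplotlib 3.10.9, and tables from pandas 2.3.3 and numpy 2.4.6 under Python 3.11.15. Symbols were matched to RefSeq names, 21571 directly, 1669 by synonym, with 180 unmatched, and promoters came from RefSeq for GRCm38.p6.

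The comparison, the 38 gene lists and the 11 marker lists were chosen with earlier results of these data known. The text names the 12 genes in each direction with the largest change among those called, changed at least 2-fold, at 10 CPM or more in the higher group, without overlap and with a gene name. The set of named genes also takes in up to 4 members of each list per direction and every tested member of lists of 12 or fewer. A fixed set for the state of the cells and 8 genes per direction for the steps were added. The text mentions only some of this set. Other list members were named after their values were seen, for their known role. Alternatives were other sets of libraries, a replicate block, filters, a pseudocount, scalings, plain moderation and leaving out each library. Values of some genes are not reported here.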

Additional observations from a re-analysis of the deposited data

How the results depend on the processing

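The count of changed genes, 9034, lay between 7348 (a filter of 10 CPM in 3 libraries, which tests fewer genes) and 9800 over the alternatives, and between 8609 and 8707 when a library was left out. Of the genes called both in the main analysis and in an alternative, 0 changed direction. Under the filter of 10 CPM, changes of at least 2-fold fell from 3224 to 2051, and members of other cell types' marker lists that were higher at 24 h from 8 to 5. Of 390 named genes, 7 lost their 24 h against 4 h call without a filter and between 4 and 9 when a library was left out. Of 247 named step calls, 22 were lost without a filter and between 9 and 23 when a library was left out. Srm and Xiap, which did not pass the test, lay between -0.004 and 0.067 and between -0.161 and 0.069 log2 when a library was left out, and their direction turned without 24 h replicate 3. The cause was not tested. The step count lay between 4387 and 5246 when a library was left out. With TMM factors 2424 step values were positive and 2624 negative. Unknown depth limits the genes below 1 CPM at either time.

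The replicate number as a block gave 8820 changed genes over 24 libraries and 9207 over the 6 of 4 h and 24 h, and a step count of 4877 over 24 libraries and 6657 over 9, against 5336 and 6569 without it. Deviations of same-numbered libraries correlated at -0.0877, -0.0965 and -0.1239. Because differences between replicate numbers had been taken out of the deposited values, these correlations cannot show whether the numbers pair the libraries. Of the named genes, 0 lost their 24 h against 4 h call with the block over 24 libraries and 1, Cdc25b, over 6, while 12 of 247 named step calls were lost over 24 libraries and 0 over 9.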
